A study of Mus musculus with 9 samples.

Results

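The cytochrome P450 family was described in wild-type mouse kidney by the genes whose symbol consists of Cyp, a family number, a subfamily letter and a gene number, leaving out Cyp24a1 and Cyp27b1. This naming rule used no measured value. It found 29 of the 13081 genes in the table, of which 16 belong to family 2, 8 to family 4 and 5 to families 1, 7, 20, 26 and 27. All 29 were tested. The annotation held 91 protein-coding symbols of this form, and the other symbols were not analysed here. Kidney RNA came from untreated wild-type mice (C57BL/6 per the study), with 4 libraries from animals of 3 months (young) and 5 from animals of 16 months (old). The libraries read the 3′ ends of polyadenylated transcripts. Nothing in the labels gives the sex of the animals, and each title stands for 1 kidney library with no statement on cages or litters, so p-values measure the spread between these libraries. Titles began with YAA in all young and with YRN in all old libraries, so whatever the prefixes mark and age cannot be told apart.

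Cytochrome P450 enzymes are haem proteins that insert an oxygen atom into lipophilic substrates, with electrons passed on by a redox partner. Most sit in the endoplasmic reticulum and draw on P450 oxidoreductase, and a few sit in mitochondria and draw on ferredoxin. In the kidney they are concentrated in the proximal tubule, where members of families 2 and 4 turn arachidonic acid into epoxides and hydroxylated products that act on vessels and salt transport, and where others oxidise drugs, steroids and solvents. Several are under the control of sex hormones in the mouse kidney, and the Cyp4a genes are known targets of the fatty acid receptor PPARα.

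The P450 genes did not move as 1 block with age. In old kidneys 9 of 29 were higher and 10 were lower (limma on log2(normalised count + 1), adjusted p under 0.05, referred to as called), and 10 did not pass the test. Calls were common throughout the table, where 59.7% of 12667 tested genes were called, 29.2% higher and 30.5% lower, so the 65.5% of P450 genes called lay near this background. The old and young libraries did not overlap in 15 P450 genes, against 49.0% of all genes tested. Changes of 2-fold or more were called in 11 of the 29 P450 genes, against 23.9% of all genes. Among these 11, Cyp2d12 and Cyp2d9 were higher and the rest lower. The median log2 difference was -0.00 over the P450 genes and -0.00 over all genes, and the median size of the difference was 0.64 and 0.56. By family, the counts were as follows: in family 2, 8 genes were higher and 5 lower, in family 4 1 was higher and 1 lower, and in the remaining families none was higher and 4 of 5 were lower. These are counts, and the difference between the families was not tested.

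**Figure D1:**
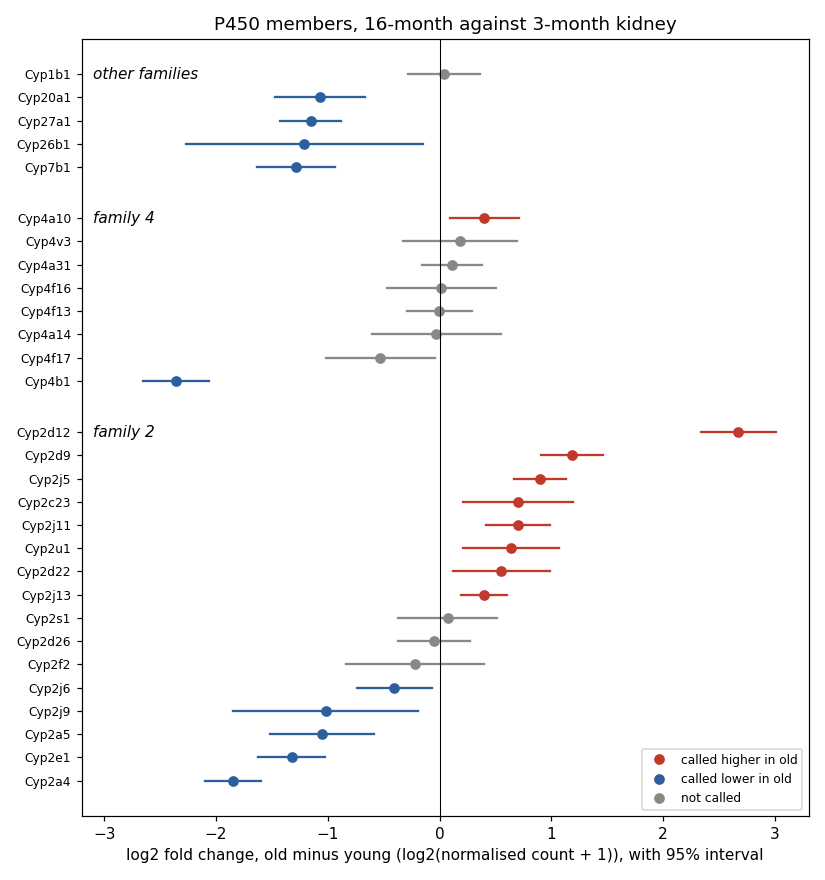
Log2 difference (old minus young, on log2(normalised count + 1)) of each of the 29 P450 genes, grouped by family, as a point with its 95% interval from limma (4 young and 5 old libraries). Cyp2d12 lies farthest to the right at 2.67 and Cyp4b1 farthest to the left at -2.36, and the intervals of 5 of the 8 family 4 genes include 0.

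Depth ranged from 4486406 to 6355095 reads per library. Mitochondrial transcripts took 27.0 to 29.7% of the reads in young and 35.8 to 38.1% in old libraries. Leaving them out before scaling moved the median log2 difference of all genes from -0.00 to 0.13 and left 16 P450 genes called (9 higher, 7 lower). In these bulk samples fewer cells of a type and less RNA per cell cannot be told apart. Of 12 proximal tubule markers, 4 were higher and 6 lower in old kidneys (29.2% and 30.5% of all genes), and their summed level was 55492 to 59520 normalised counts in young and 51855 to 67495 in old. Transcripts of 4 Y-linked genes were present in all 9 libraries, with summed levels of 311 to 355 in young and 394 to 510 in old. The X-linked Xist was looked for and was not in the table. All 5 genes of a list of male-biased kidney genes were lower in old kidneys, with a median log2 difference of -1.11, and 1 of 3 female-biased genes was higher (Slc7a12) and 1 lower (Akr1c18). Cyp4a12a and Cyp2d9, linked below to androgens or male mice, are not on the male-biased list and were higher (2.59 and 1.18). The part of the shifts in these marker and sex-biased lists in the P450 results was not tested. Young library 4 held the lowest or highest young value in 20 of the 29 genes (69.0%, against 55.0% of all genes), and old library 4 the lowest or highest old value in 18 (62.1%, against 35.8%). Without young 4, 7 P450 genes were called higher and 8 lower, and without old 4, 6 were higher and 8 lower. The adjusted p-values of the genes whose call changed are given where each is described.

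Epoxygenases turn arachidonic acid into epoxyeicosatrienoic acids. The Cyp2j and Cyp2c genes were placed with them by symbol, not by the known activity of each. All 6 were called, 4 higher and 2 lower in old kidneys (59.7% of all genes were called). Cyp2j5, the main epoxygenase of the mouse proximal tubule, measured 4660, 3982, 4039 and 4055 normalised counts in the young libraries and 7072, 6858, 7026, 8872 and 9350 in the old. Every old library lay above every young one. Its mean went from 4184 ± 319 (SD, n = 4) to 7836 ± 1179 (SD, n = 5), 1.87-fold higher, with a log2 difference of 0.90 (SE 0.11, limma adjusted p = 1.47e-06). Cyp2j11 measured 272, 292, 258 and 241 normalised counts in young and 436, 452, 310.3, 571 and 423 in old libraries, again without overlap (log2 difference 0.70, SE 0.14, limma adjusted p = 0.000238). Cyp2j13 rose from 657 ± 78.7 to 862 ± 52.2 (log2 difference 0.40, limma adjusted p = 0.00188).

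The remaining genes of this group were closer to the threshold. Cyp2c23, the renal epoxygenase formerly named Cyp2c44, measured 129, 136, 92.2 and 91.4 normalised counts in young and 211, 197, 89.2, 289 and 176 in old libraries. Old library 3 was the lowest of all 9, so the groups overlapped (log2 difference 0.70, SE 0.24, limma adjusted p = 0.0159), and the limma adjusted p was 0.0553, 0.0541 and 0.0525 without young 3, young 4 and old 4. Cyp2j6 went the other way, with 69.6, 68.0, 74.5 and 65.2 in young and 49.5, 59.1, 44.6, 50.4 and 58.3 in old libraries. These did not overlap, the log2 difference was -0.40 (SE 0.16, limma adjusted p = 0.0374), and the adjusted p lay between 0.0532 and 0.101 without young 1, 2, 3 or 4 or old 1, 3 or 4. Cyp2j9, at 21.7 ± 7.89 in young and 11.0 ± 6.43 in old, also passed with overlapping groups (log2 difference -1.02, limma adjusted p = 0.0322). It was not called without young 1, 2 or 4 or old 2, 3 or 4, with adjusted p between 0.0533 and 0.125.

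**Figure D2:**
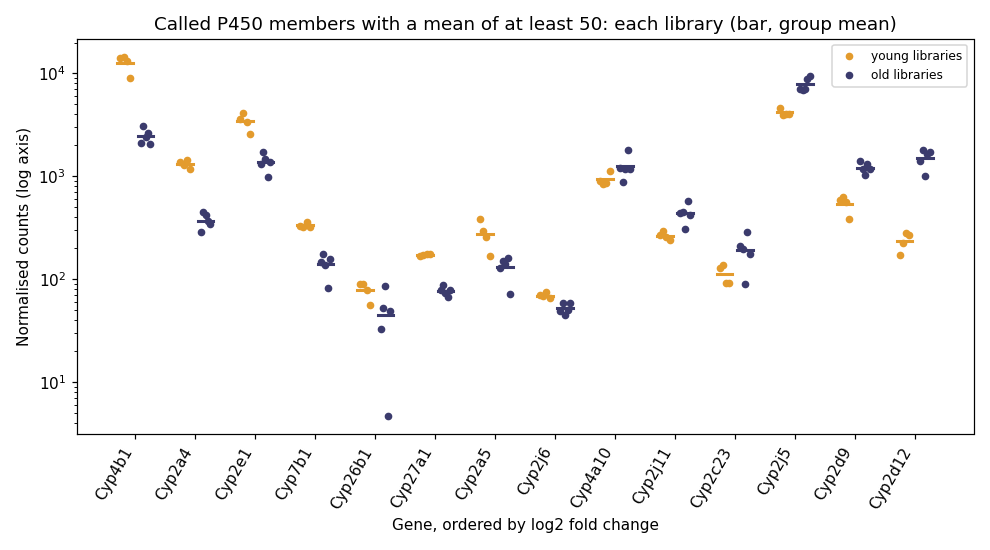
Normalised counts (log10 axis) of the 14 P450 genes chosen by call and mean level, each library as a point and each group mean as a bar, young (n = 4) and old (n = 5). Cyp4b1, Cyp2a4 and Cyp2e1 show old libraries below all young ones, Cyp2d12, Cyp2d9 and Cyp2j5 show them above, and Cyp26b1, Cyp4a10 and Cyp2c23 overlap.

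Fatty acid hydroxylases, which oxidise the end of the carbon chain, were represented by the 8 family 4 genes and by Cyp2u1. Most did not pass the test, with 2 of 9 called higher and 1 lower (33.3%, against 59.7% of all genes), and the 1 that was lower had the largest fall in the family. Cyp4b1 (GRCm38 chr4:115624725-115647723, minus strand), which oxidises fatty acids and activates plant toxins such as 4-ipomeanol, measured 14052, 14516, 13185 and 9004 normalised counts in young and 2119, 3061, 2422, 2666 and 2044 in old libraries. The lowest young library, number 4, still stood far above the highest old one. Its mean was 5.15-fold lower in old kidneys, 12690 ± 2518 against 2462 ± 416, with a log2 difference of -2.36 (SE 0.14, limma adjusted p = 1.21e-10). Its last 500 bases shared 6.17% of their 50-base words with another gene, the pseudogene Cyp4b1-ps2.

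The promoter of Cyp4b1 is shown because this gene carries the largest fall of the family. The sequence is the 250 bases before the RefSeq start (GRCm38.p6, chr4:115647722-115647971, minus strand), with capitals marking the match to the STAT motif TTCNNNGAA at 187 bases before the start.
Cyp4b1: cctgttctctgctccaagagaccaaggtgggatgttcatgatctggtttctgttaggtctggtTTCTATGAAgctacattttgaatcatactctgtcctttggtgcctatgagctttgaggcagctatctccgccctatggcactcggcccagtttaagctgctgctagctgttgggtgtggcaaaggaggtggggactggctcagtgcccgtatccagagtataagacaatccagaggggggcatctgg
The motif was found on either strand in 7.02% of 32851 promoters of this length, and in 3 of the 20 P450 genes with an entry (Cyp4b1, Cyp2j11 and Cyp4f13). Of these, Cyp4b1 was lower, Cyp2j11 higher and Cyp4f13 not called.

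The other family 4 genes changed less or did not pass the test. Cyp4a10, an ω-hydroxylase and PPARα target, measured 911, 842, 854 and 1123 normalised counts in young and 1194, 890.4, 1189, 1819 and 1190.3 in old libraries. Old library 2 lay within the young range, and the log2 difference was 0.40 (SE 0.15, limma adjusted p = 0.0264). Without old 4 the difference was 0.26 (limma adjusted p = 0.0756), and without young 1, 2 or 3 the adjusted p was 0.056, 0.0796 and 0.0763, which left Cyp4b1 as the 1 called gene of family 4 in the 3 fits without a young library. Scaling to the table total also ended that call (limma adjusted p = 0.0504), and there 0 genes of family 4 were higher and 2 lower, the second being Cyp4f17. Cyp4a14, another PPARα target, measured 113, 55.4, 74.5 and 218 in young and 104.9, 90.8, 117, 117 and 71.1 in old libraries. Its young range enclosed the old one, and the log2 difference was -0.03 (95% interval -0.61 to 0.55). For Cyp4a31 the interval was -0.16 to 0.38. Its last 500 bases shared 15.5% of their 50-base words with Cyp4a10 and Cyp4a32, and those of Cyp4a10 5.95% with Cyp4a31, so the division of reads among them is uncertain.

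The Cyp4f genes, a subfamily that includes leukotriene hydroxylases, gave log2 differences of -0.53 (Cyp4f17, 95% interval -1.02 to -0.04), 0.02 (Cyp4f16, -0.47 to 0.50) and -0.00 (Cyp4f13, -0.29 to 0.29). The end of Cyp4f16 shared 21.2% of its words with other Cyp4f genes, which leaves its reads uncertain too. Cyp4f17 had groups that did not overlap, 32.0 ± 4.59 against 22.0 ± 4.03, and a limma adjusted p of 0.0579. It was called without old 4 (limma adjusted p = 0.0469). Cyp4v3, the counterpart of a human gene mutated in a retinal dystrophy, was at 20.7 ± 3.50 and 23.7 ± 3.70 (log2 difference 0.18, 95% interval -0.33 to 0.69). Cyp2u1, a hydroxylase of long-chain fatty acids, was higher in old kidneys (76.8 ± 3.66 against 126 ± 43.4, log2 difference 0.64, limma adjusted p = 0.0121). Its old libraries split, with 171, 166 and 129 in numbers 1 to 3, and 78.4 and 85.9 in numbers 4 and 5, of which number 4 fell within the young range.

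A close relative outside the naming rule, Cyp4a12a, which makes 20-hydroxyeicosatetraenoic acid under androgen control, measured 610.1, 414, 400.03 and 140.3 normalised counts in young and 1723, 1843, 2139, 1985 and 2892 in old libraries. All old libraries were above all young ones, with a log2 difference of 2.59 (SE 0.27, limma adjusted p = 1.83e-07). Its last 500 bases shared 37.0% of their 50-base words with Cyp4a12b, which gave a log2 difference of 0.01 (95% interval -0.61 to 0.62), so the division of reads between these copies is uncertain. Among the other P450 symbols outside the rule, Cyp24a1 (vitamin D 24-hydroxylase) gave -1.29 and was called, and Cyp51 (sterol 14-demethylase) gave -0.25 and was not (limma adjusted p = 0.128).

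Of the 10 genes placed with the foreign compound oxidising enzymes, 3 were higher, 3 lower and 4 did not pass the test, which is close to the 59.7% of all genes called. The Cyp2d genes, relatives of the human drug-metabolising CYP2D6, contained the largest rise. Cyp2d12 (GRCm38 chr15:82555072-82560403) measured 174, 223, 281 and 269 normalised counts in young and 1397, 1797, 1012, 1662 and 1738 in old libraries. The groups were far apart. The mean was 6.42-fold higher in old kidneys, 237 ± 48.9 against 1521 ± 323, with a log2 difference of 2.67 (SE 0.16, limma adjusted p = 1.15e-10). Cyp2d9 (GRCm38 chr15:82433437-82456845), a testosterone 16α-hydroxylase of male mice, measured 595, 634, 559 and 382 in young and 1399, 1168, 1021, 1333 and 1168 in old libraries. Again no old library was as low as a young one, and the log2 difference was 1.18 (SE 0.13, limma adjusted p = 4.04e-07).

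Cyp2d22 was higher as well (39.6 ± 3.13 against 60.3 ± 16.9, log2 difference 0.55, limma adjusted p = 0.0277) with groups that did not overlap. Its limma adjusted p was 0.0708, 0.0594, 0.0771 and 0.0767 without young 3, young 4, old 1 and old 4. Cyp2d26 was not called (341 ± 27.8 against 337 ± 88.2, 95% interval of the log2 difference -0.37 to 0.27). These genes are near-copies: the last 500 bases of Cyp2d9 shared 29.1% of their 50-base words with other genes, those of Cyp2d12 10.5%, of Cyp2d26 8.57% and of Cyp2d22 7.95%, mostly within the subfamily. How reads were divided among them is therefore uncertain, and the summed level of the 4 genes was 1061 to 1219 normalised counts in young and 2305 to 3531 in old libraries.

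The Cyp2a genes fell. Cyp2a4 (GRCm38 chr7:26307169-26315088), a testosterone 15α-hydroxylase, measured 1389.8, 1285, 1452 and 1184 normalised counts in young and 285, 446, 419, 368 and 343 in old libraries. The lowest young library was above the highest old one by more than the whole old range. The log2 difference was -1.84 (SE 0.12, limma adjusted p = 3.51e-10), a 3.57-fold lower mean. Cyp2a5 (GRCm38 chr7:26835305-26843548), the coumarin 7-hydroxylase, measured 383, 293, 256 and 167 in young and 129.7, 151, 139.95, 162 and 72.1 in old libraries. Here young 4 came close to the highest old value without overlap, and the log2 difference was -1.05 (SE 0.22, limma adjusted p = 0.000492). Their last 500 bases shared 44.4% of their 50-base words, with each other and with the pseudogene Cyp2a21-ps, so the division of reads between them is uncertain. Summed, they measured 1351 to 1773 in young and 415 to 597 in old libraries.

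The Cyp2a4 and Cyp2a5 promoters are shown because the genes are near-copies that both fell. Each is the 250 bases before the RefSeq start on the plus strand of GRCm38.p6 (chr7:26306942-26307191 and chr7:26835089-26835338). The last bases of both lie inside the GENCODE genes given above, whose starts differ from those of RefSeq. Their annotated starts are 1 base apart in the alignment, and capitals mark the 4 positions of 249 compared at which they differ.
Cyp2a4: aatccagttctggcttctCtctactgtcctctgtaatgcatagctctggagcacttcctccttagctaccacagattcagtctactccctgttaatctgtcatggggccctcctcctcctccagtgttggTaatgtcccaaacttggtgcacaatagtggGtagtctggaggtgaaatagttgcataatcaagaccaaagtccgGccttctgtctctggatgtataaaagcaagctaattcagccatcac
Cyp2a5: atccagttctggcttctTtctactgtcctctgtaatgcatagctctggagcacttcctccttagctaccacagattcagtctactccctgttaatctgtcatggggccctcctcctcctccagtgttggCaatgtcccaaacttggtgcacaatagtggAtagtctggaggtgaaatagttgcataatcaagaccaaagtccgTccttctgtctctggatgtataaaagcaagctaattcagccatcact
The sequences were 98.4% identical, and both held TATAAA at 28 and 29 bases before the start and GTTAAT, a half-site of the liver and kidney factor HNF1, at 160.0 and 161.

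Cyp2e1 (GRCm38 chr7:140763739-140774987), which oxidises ethanol, acetone and paracetamol, measured 3650.1, 4156, 3400.2 and 2567 normalised counts in young and 1333, 1714, 1470.5, 989 and 1379 in old libraries. The groups were separate, the lowest values being young 4 and old 4 within their groups. The mean was 2.50-fold lower in old kidneys (log2 difference -1.32, SE 0.14, limma adjusted p = 2.85e-07). Its last 500 bases shared 7.44% of their 50-base words with other, mostly unrelated genes. Cyp2f2, a naphthalene-oxidising enzyme of airway cells, Cyp2s1 and the dioxin-inducible Cyp1b1 were not called, with log2 differences of -0.22 (95% interval -0.84 to 0.39), 0.07 (-0.37 to 0.52) and 0.04 (-0.29 to 0.36).

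Because TATAAA stood near the start in several of these genes, the last 100 bases before the RefSeq start are shown for one that fell and one that rose, with the motif in capitals. They are from GRCm38.p6, plus strand, chr7:140763719-140763818 for Cyp2e1 and chr15:82452277-82452376 for Cyp2d9. The RefSeq starts differ from the GENCODE gene starts given above. Measured by those, the Cyp2d9 stretch lies wholly and the Cyp2e1 stretch partly inside the gene.
Cyp2e1: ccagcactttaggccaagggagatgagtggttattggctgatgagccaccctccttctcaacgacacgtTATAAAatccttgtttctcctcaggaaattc
Cyp2d9: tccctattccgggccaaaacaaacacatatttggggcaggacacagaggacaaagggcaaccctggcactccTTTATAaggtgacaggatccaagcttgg
In Cyp2d9 the letters read on the opposite strand. TATAAA was present on either strand of the 250 bases in 7 of 20 P450 genes with an entry and in 12.4% of all promoters. The holders included genes that were lower (Cyp2a4, Cyp2a5, Cyp2e1, Cyp26b1), higher (Cyp2d9, Cyp2j5) and not called (Cyp2d26). Other letters searched on both strands were GTTAAT (3 genes, 6.43% of all promoters), the nuclear receptor half-site AGGTCA (2 genes, 14.0%) and the steroid receptor half-site AGAACA (3 genes, 16.1%).

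The 3 genes placed with the enzymes of sterols, steroids, bile acids and retinoids were all called lower, against 30.5% of all genes. Of these, Cyp26b1 lost its call in 9 of 18 alternatives. The grouping was a choice, since the testosterone hydroxylases Cyp2a4 (lower) and Cyp2d9 (higher) were counted with the foreign compound enzymes. Cyp51, a sterol enzyme outside the naming rule, was not called. Cyp7b1 (GRCm38 chr3:18071950-18243338), the oxysterol 7α-hydroxylase, measured 331, 323, 361 and 319.6 normalised counts in young and 147, 176, 139, 82.1 and 157 in old libraries. The lowest was old 4, and the groups were separate (log2 difference -1.29, SE 0.17, limma adjusted p = 2.53e-06). Cyp27a1 (GRCm38 chr1:74713574-74737892), the mitochondrial sterol 27-hydroxylase, measured 168, 171, 176 and 175 in young and 78.97, 88.6, 73.0, 67.2 and 78.5 in old libraries. Its spread was small in both groups, 172 ± 3.84 against 77.3 ± 7.96, and the log2 difference was -1.15 (SE 0.13, limma adjusted p = 4.22e-07).

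Cyp26b1, which degrades retinoic acid, measured 90.9, 89.4, 78.4 and 56.1 normalised counts in young and 33.0, 52.5, 86.2, 4.66 and 48.8 in old libraries. Old 3 lay among the young libraries and old 4 far below all others. The log2 difference was -1.21 (SE 0.51, limma adjusted p = 0.0466), and without old 4 it was -0.56 (limma adjusted p = 0.0584). Leaving out young 1, 2 or 3 or old 1 also ended the call (limma adjusted p between 0.0771 and 0.1). Cyp20a1, an orphan enzyme of unknown substrate, was lower without overlap (67.5 ± 7.05 against 31.9 ± 5.88, log2 difference -1.07, limma adjusted p = 9.61e-05).

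Neighbouring genes did not always share a direction. Only P450 genes in the table are counted here, which leaves out annotated genes such as Cyp2d10 and Cyp2d11. The Cyp2j genes on chromosome 4, which span 636.6 kb, read in order higher (Cyp2j13, Cyp2j11), lower (Cyp2j6, Cyp2j9) and higher (Cyp2j5). In the 348.7 kb from Cyp4a12a to Cyp4b1, the outermost genes gave log2 differences of 2.59 and -2.36, and of the 4 genes between them 1 was called (59.7% of all genes). On chromosome 15, 3 of the 4 measured Cyp2d genes within 423.8 kb were higher (29.2% of all genes). Of these, Cyp2d22 lost its call in 4 fits without 1 library. On chromosome 7, Cyp2a4 and Cyp2a5 were lower while Cyp2s1 and Cyp2f2, at the ends of the same 1331 kb, were not called.

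**Figure D3:**
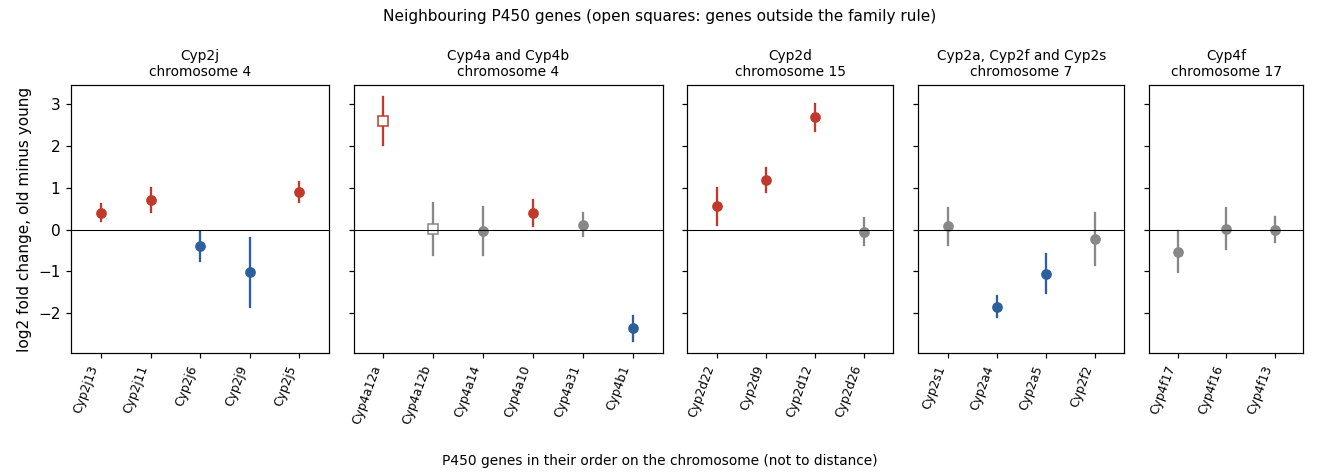
Log2 difference (old minus young) with its 95% interval for genes in their order along 5 P450 gene clusters, with genes outside the naming rule in open symbols. In the Cyp4a and Cyp4b cluster the value goes from 2.59 at Cyp4a12a to -2.36 at Cyp4b1, and in the Cyp2j cluster Cyp2j6 and Cyp2j9 lie below 0 between genes that lie above it.

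Added up over genes, Cyp4b1 took a smaller and Cyp2j5 a larger share of the family's reads in old than in young libraries. The sum over all 29 genes was 23074 to 30206 normalised counts in young and 18585 to 23127 in old libraries, which overlap by the margin between young 4 and old 4. The family 4 sum was 12250 to 17144 in young and 5136 to 7070 in old libraries (ratio of means 0.369), and without Cyp4b1 that ratio was 1.16. For family 2 the sums were 10143 to 12596 and 12807 to 16075 (ratio 1.25), and without Cyp2j5 the ratio was 0.905. The remaining families summed to 682 to 756 in young and 278 to 415 in old libraries (ratio 0.511). Cyp4b1 took 39.02 to 48.1% of the family's reads in young and 9.34 to 15.1% in old libraries, and Cyp2j5 13.2 to 17.6% and 33.8 to 42.7%. These are shares of reads, no test was made on them, and a change in 1 member moves the share of every other.

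**Figure D4:**
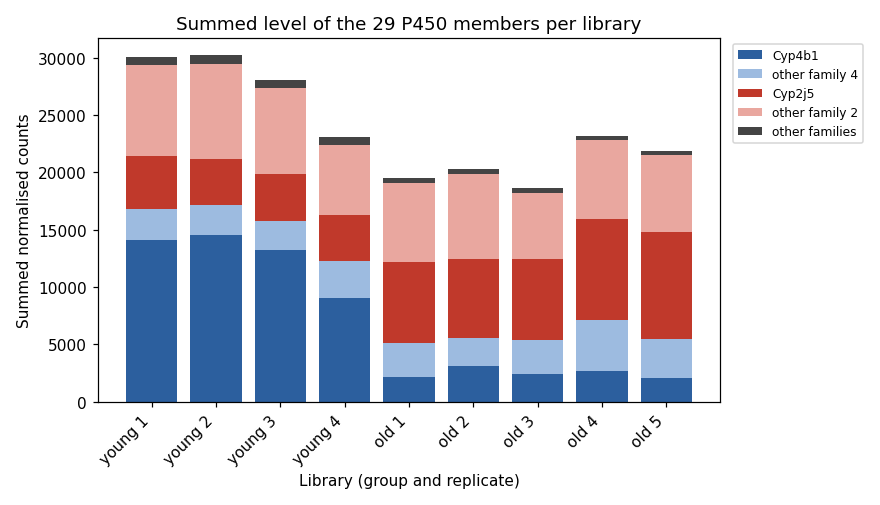
Summed normalised counts per library for family 2, family 4 and the remaining P450 families, stacked from 0, for 4 young and 5 old libraries, with Cyp4b1 and Cyp2j5 drawn apart. Cyp4b1 fills 39.02 to 48.1% of each young bar and 9.34 to 15.1% of each old bar.

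Redox partners, which hand electrons to P450 enzymes, included 9 tested genes, of which 1 was higher and 6 were lower, with a median log2 difference of -0.51 (all genes -0.00, 29.2% higher and 30.5% lower). No test of the list was made, here or for the lists that follow. P450 oxidoreductase (Por), the partner of the microsomal enzymes, went from 1909 ± 293 to 1337 ± 166 normalised counts (log2 difference -0.51, limma adjusted p = 0.000762). Cytochrome b5 (Cyb5a) went from 4283 ± 322 to 2438 ± 310 (-0.82, limma adjusted p = 1.73e-06), and Cyb5r1, a cytochrome b5 reductase, gave -0.89. Ferredoxin (Fdx1), which serves mitochondrial enzymes such as Cyp27a1, measured 519, 531, 541 and 587 in young and 272, 295, 252, 295 and 303 in old libraries. The Fdx1 groups were separate (-0.94, SE 0.10, limma adjusted p = 1.7e-07). Pgrmc2, a haem-binding membrane protein, was the 1 that was higher (0.55, limma adjusted p = 0.000284). With a transcript length trend removed, 2 were higher and 5 lower.

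Of 12 haem synthesis and breakdown genes, 2 were higher and 7 lower (median log2 difference -0.48), against the same shares of all genes. Cpox, coproporphyrinogen oxidase, measured 1293, 1252, 1390.3 and 1108 normalised counts in young and 204, 289.9, 228, 184 and 179 in old libraries. No old library reached a young one (log2 difference -2.55, SE 0.13, limma adjusted p = 1.11e-11). Blvrb, a biliverdin reductase, gave -0.84. Alas1, which sets the rate of haem synthesis, was not called (460.4 ± 12.9 against 432 ± 57.7, log2 difference -0.10, limma adjusted p = 0.428). Hmox1, which breaks haem down, rose from 35.1 ± 7.75 to 78.3 ± 27.8 (1.09, limma adjusted p = 0.000521), and Blvra, the other biliverdin reductase, rose as well (0.42, limma adjusted p = 0.00218).

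Among 22 tested transcription factors and hormone receptors known to regulate P450 genes, 5 were higher and 7 lower (median log2 difference -0.22). The 54.5% called lay near the 59.7% of all genes. With mitochondrial genes left out before scaling these counts were 6 and 3, scaled to the table total 4 and 9, without young 4 4 and 6, and without old 4 3 and 6. Ppara, the receptor that drives Cyp4a genes, measured 164, 154, 148 and 122 normalised counts in young and 769.7, 648, 768, 848 and 682 in old libraries. The groups were far apart, with a log2 difference of 2.33 (SE 0.11, limma adjusted p = 7.73e-12). Nr3c1, the glucocorticoid receptor, was also higher (0.91, limma adjusted p = 4.71e-07). Prlr, the prolactin receptor, measured 30.3, 25.3, 32.4 and 129 in young and 129.7, 107, 126, 339 and 145 in old libraries. Young 4 and old 4 were the highest of their groups, so that young 4 fell inside the old range (1.83, SE 0.37, limma adjusted p = 0.00034).

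Hnf4a, a nuclear receptor of proximal tubule and liver, went from 1863 ± 153 to 981 ± 112 normalised counts (log2 difference -0.93, limma adjusted p = 2.39e-07). Ppard, the receptor PPARδ, gave -0.78 and Nr1h3, the oxysterol receptor LXRα, -0.72.

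Known PPARα targets outside the family were called in both directions, 7 of 21 higher and 9 lower (29.2% and 30.5% of all genes). Their median log2 difference was -0.30, and the 76.2% called compares with 59.7% of all genes. With the length trend removed these counts were 9 and 7, without young 4 6 and 9, and without old 4 6 and 11. Genes of fatty acid oxidation were among those higher: Hadha, a subunit of the mitochondrial trifunctional protein (1.11), the thiolase gene Acaa2 (0.79) and the peroxisomal gene Ehhadh (0.74). The acyl-CoA thioesterase genes Acot2 (-2.50) and Acot1 (-1.93) and the carnitine carrier gene Slc25a20 (-1.49) were lower. Cyp4a10 gave 0.40 and Cyp4a14 -0.03. The list ran from -2.50 to 1.11, a range too wide to tell these values from those of genes outside the list.

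Of 16 tested genes that make, release or break down other arachidonic acid products, 3 were higher and 1 lower (median log2 difference 0.14). The 25% called compares with 59.7% of all genes. With the length trend removed 7 were higher and 1 lower, and without old 4 the counts were 4 and 1. Ephx2, the soluble hydrolase that breaks down the epoxides made by Cyp2j and Cyp2c enzymes, measured 2019.5, 2069.6, 1886 and 1664 normalised counts in young and 1262, 1305, 1326, 1173.5 and 1157 in old libraries. All old libraries were below all young ones (log2 difference -0.61, SE 0.09, limma adjusted p = 1.39e-05). Ephx1, the microsomal epoxide hydrolase, was higher (81.98 ± 13.5 against 148 ± 42.0, 0.81, limma adjusted p = 0.00141), as was Ptgs1, cyclooxygenase 1 (0.53, limma adjusted p = 0.0082). Pla2g4a, a phospholipase that releases arachidonic acid, was the remaining called gene (9.73 ± 1.72 against 22.8 ± 7.91, 1.10, limma adjusted p = 0.00531).

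**Figure D5:**
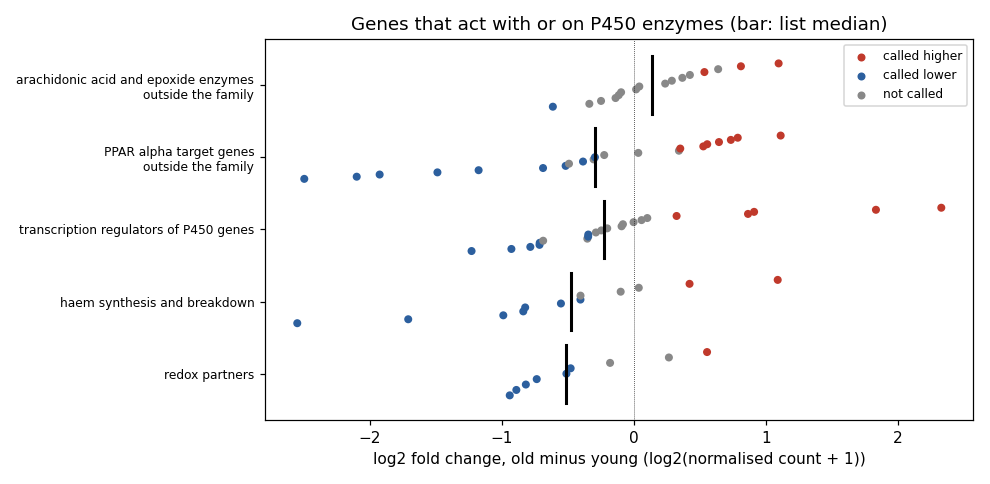
Log2 difference (old minus young) of each tested gene in 5 lists of genes that work with P450 enzymes, as points with the median of each list as a bar. The medians are -0.51 for redox partners, -0.48 for haem genes, -0.22 for regulators, -0.30 for PPARα targets and 0.14 for arachidonic acid enzymes.

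Markers of other tissues rich in P450 enzymes were also measured. Of 9 hepatocyte markers 7 were tested, 2 higher and 2 lower in old kidneys (57.1% called, against 59.7% of all genes), and none was at 0 in any library. Their sum was 738 to 1427 normalised counts in young and 334 to 733 in old libraries, with Ttr at 519.8 to 1255 and 116 to 446 of it. Albumin (Alb) was at 10.6 to 49.7 in all 9 libraries. Of 8 adrenal cortex markers, Soat1 alone was in the table and it was not called. Adipocyte markers summed to 1471 in young 2 and 1199 in old 3, and to 59.7 to 469 in the other libraries, with Adipoq at 0 in young 4 and Cidec at 0 in young 1 and young 4. The part of these markers in the P450 results was not tested.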

How the data were processed

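The members and all gene lists were chosen with earlier results of these data known. Per the labels, total RNA with a single stated mean integrity number of 7.5 was turned into QuantSeq 3′ libraries by oligo(dT) priming, read as stranded single reads. The labels and the study's methods name different kit versions. The submitters' processing notes name FastQC 0.11.7, TopHat2 2.0.10, Bowtie 1.0.0, SAMtools 0.1.19, HTSeq 0.6.1, DESeq2 and GRCm39. The study's methods name GENCODE vM26 and counting by strand. The authors deposited a signal on the scale of read counts, each library's counts divided by its size factor. Taking the smallest positive value of a library as 1 read, 100% of values were whole multiples within 0.01. Each of the 9 value columns mapped to a library. The lowest gene mean was 4.49, so genes with few reads had been removed by a rule not given in the sources used here. A floor of 3 reads was 4.72e-05 to 6.69e-05% of a library's reads, which covers counting error only, since the reads carry no molecular identifiers and PCR copies count as molecules.

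Old was tested against young with limma 3.58.1 (R 4.3.3, variance trend, no covariate) on log2(normalised count + 1). Genes entered the test if 4 or more libraries held 10 or more normalised counts, with Benjamini-Hochberg adjustment over all 12667 genes and a threshold of 0.05. This scale understates changes of low genes. Tests were checked on simulated data. Positions and transcript ends came from GENCODE vM21 (GRCm38, not the authors' build) by symbol, which matched 12831 of 13081 genes (98.1%), and promoters from RefSeq (GRCm38.p6), which matched 20 of 29 members. Members with all 9 values were, per family, the called genes whose mean was 50 or more, up to the 5 largest rises and falls. From each companion list up to 3 called genes per direction above the same mean were named. Some list genes are not reported here by name. The library values of Cyp4a14 and Fdx1, and Por, Alas1 and Pla2g4a, were added after their values were seen. Alternatives were other pseudocounts, filters, scalings, a removed trend on transcript length, the count tests of DESeq2 1.42.0 and edgeR 4.0.16 on whole reads, and each library left out.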

Additional observations from a re-analysis of the deposited data

Results flagged for a closer look

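Of 66 sets of values examined for a library far from the others of its group (each of 29 P450 genes, the sums of the 3 family groups and the sum of all members, in young and in old), 4 stood out, and chance alone gives about 1 in 20, here 3.3. Values are the gap to the nearest library divided by the range of the group, both on log2(normalised count + 1). Cyp2a5 in old 5 had 72.1 normalised counts against 129.7 to 162 in the other old libraries (0.722), but on counts without the log its ratio was 0.638, below the critical value of 0.71. Cyp2j5 in young 1 had 4660 against 3982 to 4055 (0.884). The family 4 sum in old 4 was 7070 against 5136 to 5545 (0.76). The sum of families 1, 7, 20, 26 and 27 in old 4 was 278 against 385 to 415 (0.818). On counts these last 3 ratios were 0.892, 0.788 and 0.787, all past the critical value.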

How the results depend on the processing

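Of the 19 called P450 genes, 13 kept direction and call under every alternative in which they were tested. Over 19 alternatives and 29 genes, 39 values lost the call, 2 gained it (Cyp4f17) and 23 changed sign, all of the last in genes that were not called. No paired analysis was possible because the titles give no replicate numbers shared between the ages. The causes were not tested. Requiring a mean of 100 normalised counts, which tests fewer genes, 4101 genes (7568 in the main result), 2 of the remaining families and 5 haem genes were called. With the length trend removed, 8 arachidonic acid genes were called. Leaving out 1 library gave 6900 to 7626 genes, 14 to 19 P450 genes, 9 to 13 of family 2, 1 to 2 of family 4 and 3 to 4 of the others. In family 2, 8 were higher and 3 lower (8 and 5 in the main result) with mitochondrial genes left out or the length trend removed. Cyp26b1 was also not called with a pseudocount of 0.1, mitochondrial genes left out, edgeR or DESeq2 (adjusted p 0.0563, 0.0838, 0.0628 and 0.271), and its adjusted p ranged from 0.0104 to 0.271. Cyp2j6 and Cyp2j9 ranged from 0.0199 to 0.159 and from 0.012 to 0.125, and Cyp2j6 was not called with DESeq2 (0.0513). Sign changes on the log2 scale were as follows. Scaled to the table total, Cyp1b1 gave -0.0166 and Cyp4f16 -0.0338. With mitochondrial genes left out, Cyp2d26 gave 0.0901, Cyp4a14 0.109 and Cyp4f13 0.139. With the length trend removed, Cyp1b1 gave -0.139, Cyp2d26 0.228, Cyp2f2 0.0379, Cyp4a14 0.157 and Cyp4f13 0.271. Over the 9 fits that left out 1 library, Cyp1b1 ranged from -0.0209 to 0.0958, Cyp2d26 from -0.172 to 0.0805, Cyp2s1 from -0.0062 to 0.141, Cyp4a14 from -0.314 to 0.339, Cyp4f13 from -0.0723 to 0.0777 and Cyp4f16 from -0.0782 to 0.0645. Counting error is largest for the genes with the fewest reads, such as Cyp2j9 and Cyp4f16.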

Other observations

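Male-biased transcripts also differed between libraries of the same age. Slco1a1, an organic anion carrier of male proximal tubule, measured 736, 689, 676 and 383 normalised counts in young and 276, 253, 442, 126 and 429 in old libraries, so that young 4 and old 4 were the lowest of their groups. Of the 5 genes on the male-biased list, 3 (Kap, Slco1a1 and Acsm3) were lowest in both young 4 and old 4. Odc1 was lowest in old 4 but not in young 4, and Cndp2 was highest in young 4 at 2623 and not lowest in old 4. Akr1c18, a progesterone-inactivating enzyme, was at 62.2 to 206 in young libraries and at 0 in old 1 and old 3, with 1.06 to 3.73 in the other old libraries.

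Marker lists of other kidney cells are given as counts, to be read against the 29.2% of all genes called higher and 30.5% called lower, and no list was tested. In the thick ascending limb 2 of 5 markers were higher in old kidneys and none lower, in distal tubule and collecting duct 1 of 8 was higher and 6 lower, in podocytes 3 of 5 were higher and 1 lower, in endothelium 4 of 6 were higher and none lower, and in macrophages 2 of 7 were higher and 2 lower. Upk3a, the 1 urothelial marker tested, was not called and was highest in old 3 at 89.2 normalised counts, the old library with the highest adipocyte markers.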
